A study of Mus musculus with 6 samples.

Results

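The genes described here are 10 members of the bone morphogenetic protein (BMP) pathway: the ligands Bmp2, Bmp4 and Bmp7, the signal-carrying Smad1 and Smad5, the inhibitory Smad6, and the target genes Id1, Id2, Id3 and Id4. They were chosen by name, with earlier results of these data known, and found by matching Ensembl identifiers to mouse symbols. All 10 were among the 22600 genes of the count table, and all 10 were among the 15535 genes that passed the filter on low counts. They were measured with RNA-seq, in embryonic stem (ES) cells of the mouse and in FLICs, the labels' name for differentiated cells derived from ES cells, all of C57BL/6 background and cultured for 96 h. The 4 groups were untreated wild-type ES cells (n = 2), ES cells given OHT (4-hydroxytamoxifen by its usual meaning) for 3 days and labelled TRF2-/- (n = 2), untreated wild-type FLICs (n = 1), and FLICs given OHT for 3 days and labelled TRF2-/- (n = 1). TRF2, encoded by Terf2, is a telomere-binding protein. No group received OHT without the TRF2-/- label, so OHT itself and the loss of TRF2 cannot be told apart. The labels do not say whether libraries of a group are separate cultures. All p-values therefore refer to the spread between these libraries alone, and that spread may be technical.

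BMP ligands bind pairs of type I and type II receptor kinases, and Smad1, Smad5 and Smad9 are then phosphorylated. These Smads join Smad4, enter the nucleus and bind DNA at the genes they control. Id genes are the classic immediate targets. Their helix-loop-helix products lack a DNA-binding region and hold E proteins away from DNA, which blocks differentiation programmes. In mouse ES cells, BMP4 acting through Id genes is known to support self-renewal together with the cytokine LIF, whereas in mesenchymal cells BMP signals drive bone and cartilage programmes.

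Total counts ran from 23534551 to 43965309 per library, and 3 counts, the limit that a count of 0 allows, equal 0.0686 to 0.118 CPM, counts scaled to a common library size. This limit covers counting error only. Terf2 had 554 and 732 counts in untreated ES cells against 9 and 10 with OHT, and 268 against 5 in FLICs, as the labels say. The 10 ES cell markers summed to between 3604 and 4247 CPM in ES cells and to 123 and 84.3 CPM in FLICs. The 10 fibroblast and mesenchyme markers summed to between 1128 and 1939 CPM in ES cells, mostly Fn1, and to 11840 and 16587 CPM in FLICs, where Lum was at or near 0 and Thy1 lay below its ES cell level. Of the 8 endoderm markers, Foxa2, Gata4, Gata6 and Dab2 were called higher in FLICs when both cell types were untreated, while Sox17 (0 CPM in both FLICs libraries) and Sox7 were called lower and Afp and Ttr were too low to test. Their sum in FLICs was 249 and 254 CPM, most of it Dab2 and Foxa2. In such bulk samples, fewer cells of a type and less RNA per cell cannot be told apart. The OHT-treated ES cell libraries differed more from each other than the untreated ones: the median absolute difference in log2(CPM + 1) was 0.26 against 0.10 over genes averaging 1 CPM or more.

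The upstream sequences of 3 members are shown because the results turn on them: Id2 was the member called with OHT in ES cells, Id3 was the most abundant Id gene in FLICs, and Smad6 was the Smad with the largest difference between cell types. They are RefSeq sequences on GRCm38.p6, read 5′ to 3′ on the gene's strand up to the RefSeq start site, which for Id2 and Id3 lies inside the GENCODE extent of the gene, so that both of these sequences are within the annotated gene. Capitals mark GGCGCC, a GC-rich element bound by Smad1 and Smad5, and GTCT on either strand, the Smad-binding box. GTCTAGAC, the palindromic Smad-binding element, holds that box on both strands. Promoter sequences were found for 7 members (9 windows) in the table used, with none for Id1, Bmp2 and Bmp7.
Id2, chr12:25096093-25096342, minus strand: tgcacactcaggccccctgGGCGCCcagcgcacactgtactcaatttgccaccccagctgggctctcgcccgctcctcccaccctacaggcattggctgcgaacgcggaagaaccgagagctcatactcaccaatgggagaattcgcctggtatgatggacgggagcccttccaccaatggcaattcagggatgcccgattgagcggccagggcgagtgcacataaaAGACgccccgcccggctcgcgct
Id3, chr4:136143572-136143821, plus strand: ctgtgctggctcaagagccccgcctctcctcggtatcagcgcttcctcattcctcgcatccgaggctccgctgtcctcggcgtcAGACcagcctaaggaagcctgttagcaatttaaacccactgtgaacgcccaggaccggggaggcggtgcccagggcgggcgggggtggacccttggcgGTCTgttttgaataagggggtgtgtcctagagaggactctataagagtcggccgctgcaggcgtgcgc
Smad6, chr9:64022056-64022309, minus strand: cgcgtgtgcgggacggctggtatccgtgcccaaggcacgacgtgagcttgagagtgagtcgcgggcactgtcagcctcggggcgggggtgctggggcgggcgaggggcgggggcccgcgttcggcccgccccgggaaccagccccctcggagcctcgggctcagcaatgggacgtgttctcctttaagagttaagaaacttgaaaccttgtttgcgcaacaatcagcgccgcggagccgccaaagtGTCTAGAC

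The Id2 sequence holds 1 GGCGCC, starting 231 bases before the start site, and 1 box on the opposite strand 23 bases before it. The Id3 sequence holds 2 boxes and no GGCGCC. The Smad6 sequence ends in GTCTAGAC, which starts 4 bases before the start site and straddles it, so 4 transcribed bases are shown. All promoter windows of this table, 32851 of 300 bases each, were searched on both strands. GTCTAGAC was in 0.213% of them, GGCGCC in 11.9% and GTCT in 88.0%, so the box alone separates few genes. Of the other members, Id4 and 2 of the 3 Smad5 windows held GGCGCC. These matches describe letters in a window and say nothing of binding.

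OHT in ES cells was set against no treatment to ask how this pathway's transcripts differ when TRF2 is lost in pluripotent cells. Id2 (ENSMUSG00000020644, chromosome 12, 25093799 to 25097140, GRCm38) was the only member called. Its libraries read 15.2 and 16.5 CPM without OHT, and 47.3 and 44.0 CPM after it. Both OHT libraries lay near 3 times the untreated level, and the groups were far apart. Mean Id2 rose 2.88-fold, from 15.8 ± 0.949 to 45.7 ± 2.31 CPM (SD, n = 2 per group), which is 1.53 on the log2 scale (SE 0.14, edgeR adjusted p = 0.0252). This is 1 member of 10 called, against 0.534% of all 15535 genes, or 0.521% called higher and 0.0129% lower. DESeq2 called the same single member, within 304 genes called higher and 88 lower. Id2 lost its call when either untreated library was left out, at 1.47 (edgeR adjusted p = 0.258) and 1.59 (edgeR adjusted p = 0.215), where the spread rests on the OHT pair.

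The other Id genes were also higher with OHT in each library, without passing the test. Id1 (ENSMUSG00000042745, chromosome 2, 152736251 to 152737410), the Id gene most used as a readout of BMP signalling, stood at 59.8 and 53.4 CPM in the untreated libraries against 126 and 62.1 CPM under OHT. The groups did not overlap, but OHT replicate 1 was far above replicate 2. Its log2 fold change was 0.74 (95% interval -0.07 to 1.55, edgeR adjusted p = 0.303). Leaving out OHT replicate 2 gave 1.198, and leaving out OHT replicate 1 gave 0.14. With 1 OHT library left, the spread comes from the untreated pair alone, so only the log2 fold change is given here. The size of the Id1 difference thus rests on OHT replicate 1.

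Id3 (ENSMUSG00000007872, chromosome 4, 136143497 to 136145755) followed the same order of libraries, with 27.9 and 25.02 CPM in the untreated libraries against 46.2 and 30.7 CPM under OHT. Its log2 fold change was 0.54 (95% interval 0.0009 to 1.08, edgeR adjusted p = 0.273), 0.85 without OHT replicate 2 and 0.22 without OHT replicate 1. Id4 (ENSMUSG00000021379, chromosome 13, 48261228 to 48266026), the least abundant of the family, stood at 2.28 and 2.79 CPM in the untreated libraries against 3.31 and 3.80 CPM under OHT (log2 fold change 0.48, edgeR adjusted p = 0.357). In all 4 Id genes the libraries of the groups did not overlap, with OHT higher. Over all genes tested, 25.2% were so separated with OHT higher, 27.6% with OHT lower and 52.8% in either direction, so by itself it sets few genes apart. The OHT libraries differed by 0.10 in log2(CPM + 1) for Id2, 0.16 for the scarce Id4, 0.58 for Id3 and 1.01 for Id1.

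**Figure D1:**
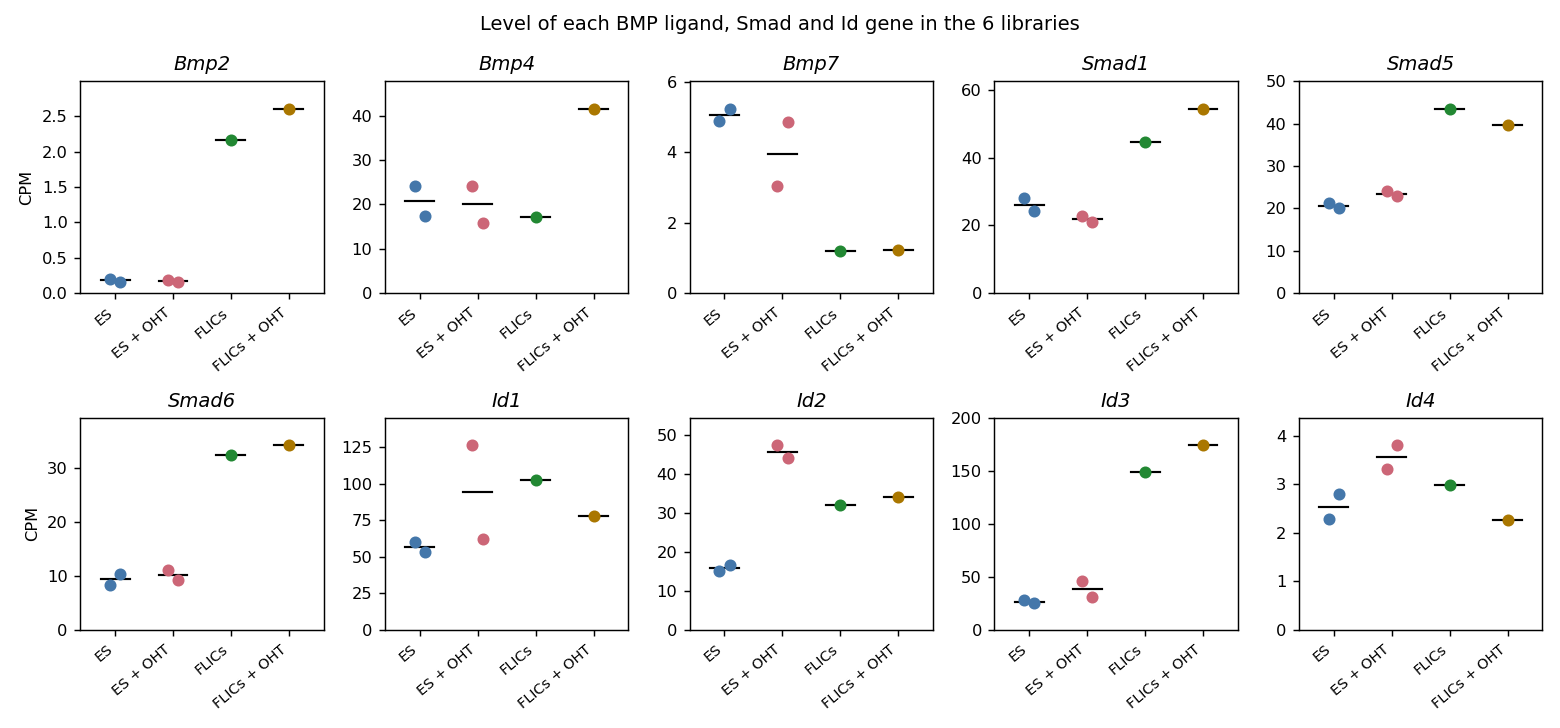
Points are libraries, bars are group means, and the vertical axes give CPM from 0, each on its own scale. Id2 separates OHT-treated (47.3 and 44.0 CPM) from untreated ES cells (15.2 and 16.5 CPM), while the OHT-treated libraries of Id1 lie at 126 and 62.1 CPM.

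The ligands did not pass the test with OHT in ES cells. Bmp4 (ENSMUSG00000021835, chromosome 14, 46383520 to 46390669), the main ligand of these cells, stood at 24.1 and 17.4 CPM in the untreated libraries against 24.1 and 15.9 CPM under OHT. These groups overlapped, and the log2 fold change was -0.05 (95% interval -0.70 to 0.60, edgeR adjusted p = 0.940). Leaving out OHT replicate 1 gave -0.38 and leaving out OHT replicate 2 gave 0.26, so its sign follows the library left out. Bmp7 (ENSMUSG00000008999, chromosome 2, 172868012 to 172940321), a ligand of kidney and eye development, stood at 4.90 and 5.24 CPM in the untreated libraries against 3.06 and 4.86 CPM under OHT. Its log2 fold change was -0.36 (95% interval -1.08 to 0.35, edgeR adjusted p = 0.531), and -0.69 without OHT replicate 2. Bmp2 (ENSMUSG00000027358, chromosome 2, 133552159 to 133562885), a close relative of Bmp4, had 4 to 6 counts in each ES cell library, too few to show a change of moderate size (95% interval -1.28 to 1.202).

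Nor did the Smads pass. Smad1 (ENSMUSG00000031681, chromosome 8, 79338395 to 79399518) stood at 28.1 and 24.2 CPM in the untreated libraries against 22.8 and 21.0 CPM under OHT, a log2 fold change of -0.25 (95% interval -0.63 to 0.12, edgeR adjusted p = 0.410). Its partner Smad5 (ENSMUSG00000021540, chromosome 13, 56703010 to 56742377) lay the other way, at 21.2 and 20.1 against 24.2 and 22.8 CPM (0.19, 95% interval -0.16 to 0.53, edgeR adjusted p = 0.4997). Neither pair of groups overlapped, yet both intervals include 0. Smad6 (ENSMUSG00000036867, chromosome 9, 63953076 to 64022059), which blocks BMP receptor signalling and is itself a BMP target, overlapped at 8.37 and 10.5 against 11.2 and 9.29 CPM (0.12, 95% interval -0.36 to 0.60, edgeR adjusted p = 0.768). Each of these 3 intervals leaves out a change of 2-fold in either direction.

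Of 71 further genes of the pathway, 60 were tested and none was called with OHT in ES cells by edgeR. At an unadjusted p under 0.05 there were 8 of 60, against 18.3% of all genes, and DESeq2 called 2, Atoh8 and Gata2, both higher. Their median change was -0.06 on the log2 scale, against -0.01 over all genes. The receptors (7 tested, median -0.02), co-receptors (4, -0.12), extracellular inhibitors (13, -0.14) and intracellular modulators (10, -0.19) had medians near 0. Of the 10 modulators, 2 were above 0, and 2 or 3 in each alternative fit, with medians there from -0.29 to -0.11. The other ligands (6, 0.20), other Smads (3, -0.20), chordin proteases (2, 0.33) and E proteins (3, -0.42) are small groups. The genes with the smallest p were Bmpr1b (2.12) and Acvr2b (-0.59) among receptors and Twsg1 (-0.50) and Dand5 (1.01) among inhibitors. Bmpr1b had only 2 and 2 counts untreated and 4 and 11 with OHT. Among modulators they were the co-repressor Ski (-0.63) and the pseudoreceptor Bambi (0.48). The remaining groups gave Gdf7 (1.02) and Bmp6 (0.46), Hjv (0.83) and Eng (-0.91), Smad7 (-0.27) and Smad4 (-0.20), Tll1 (0.69) and Bmp1 (-0.02), and Tcf3 (-0.42) and Tcf4 (-0.48), all as log2 fold changes. Gdf7 too was scarce, with 10 and 6 counts untreated and 13 and 15 with OHT.

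The other BMP target genes were the group with the highest median, 0.98 over 12 tested, with 10 of 12 above 0. This compares with 48.7% of all genes above 0. The gene lists were chosen with earlier results of these data known, so the comparison is a description only. The median fell to 0.37 without OHT replicate 1, with 9 of 12 above 0, and was 0.75 without OHT replicate 2. In OHT replicate 2 alone, Msx2 and Dusp9 were near their untreated levels. Atoh8, a helix-loop-helix factor induced by BMP, had 5 and 2 counts untreated and 21 and 10 with OHT (log2 fold change 2.32, edgeR adjusted p = 0.145, DESeq2 adjusted p = 0.0286). Dlx2, a homeobox gene, stood at 0.364 and 0.266 CPM in the untreated libraries against 0.998 and 0.510 CPM under OHT (1.30, edgeR adjusted p = 0.200). Gata2, a blood and trophoblast factor named here because DESeq2 called it, stood at 11.3 and 11.7 CPM in the untreated libraries against 48.8 and 15.7 CPM under OHT. As for Id1, OHT replicate 1 was the higher library. The co-receptor Eng, chosen by its p, also set the OHT libraries apart, at 70.8 and 71.8 CPM untreated and 13.5 and 62.5 CPM with OHT. Beside these values, 5 of 8 trophoblast markers and 5 of 8 endoderm markers had both OHT libraries above both untreated ones, and none of either list was called by edgeR. Over all genes tested, 25.2% were so separated with OHT higher, and 0.521% were called higher. The 5 endoderm markers include Afp, which was too low to be tested. Elf5, among the 5 trophoblast markers, had 3 and 7 counts untreated, 24 and 24 with OHT and 0 in FLICs. Elf5 thus passed the count filter through the OHT libraries alone, and the comparison with all genes tested is partly set by that filter. Among trophoblast markers, Elf5 was at 0.0993 and 0.186 CPM without OHT and 0.749 and 0.941 CPM after it, Gcm1 at 0.364 and 0.452 against 1.34 and 1.41 CPM, and Hand1 at 0.695 and 1.12 against 3.43 and 2.12 CPM. Cdx2, Eomes and Krt7 overlapped. Cdx2 was at 4.90 and 4.90 against 8.33 and 4.51 CPM, and Eomes at 50.2 and 37.3 against 40.75 and 23.4 CPM (log2 fold change -0.45). The trophoblast sum, most of it Eomes and Tfap2c, which ES cells express, was 89.1 and 96.1 CPM untreated and 87.6 and 101 CPM with OHT. The endoderm sum was 5.1 and 5.4 against 9.8 and 12.9 CPM. Of 6 endothelial markers 1 was called higher, the receptor gene Tie1, at 0.364 and 0.346 CPM untreated against 9.49 and 5.45 CPM (edgeR adjusted p = 0.0250). Of 10 ES cell markers, 7 had both OHT libraries below both untreated ones and 2 above, against 27.6% and 25.2% of all genes. Of 10 fibroblast and mesenchyme markers, 1 lay below and 6 above. The 6 mesoderm markers gave 2 below and 1 above, and the 6 neural markers 2 and 2. None of these lists had an edgeR call. Of the markers above, Lum, Mesp1 (the 1 mesoderm marker) and Neurog2 had too few counts to be tested. Col3a1, also above, had 1 and 2 counts untreated and 4 and 2 with OHT. The shares of all genes cover tested genes only. The part of other cell types in the Id2 and target gene values was not tested.

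**Figure D2:**
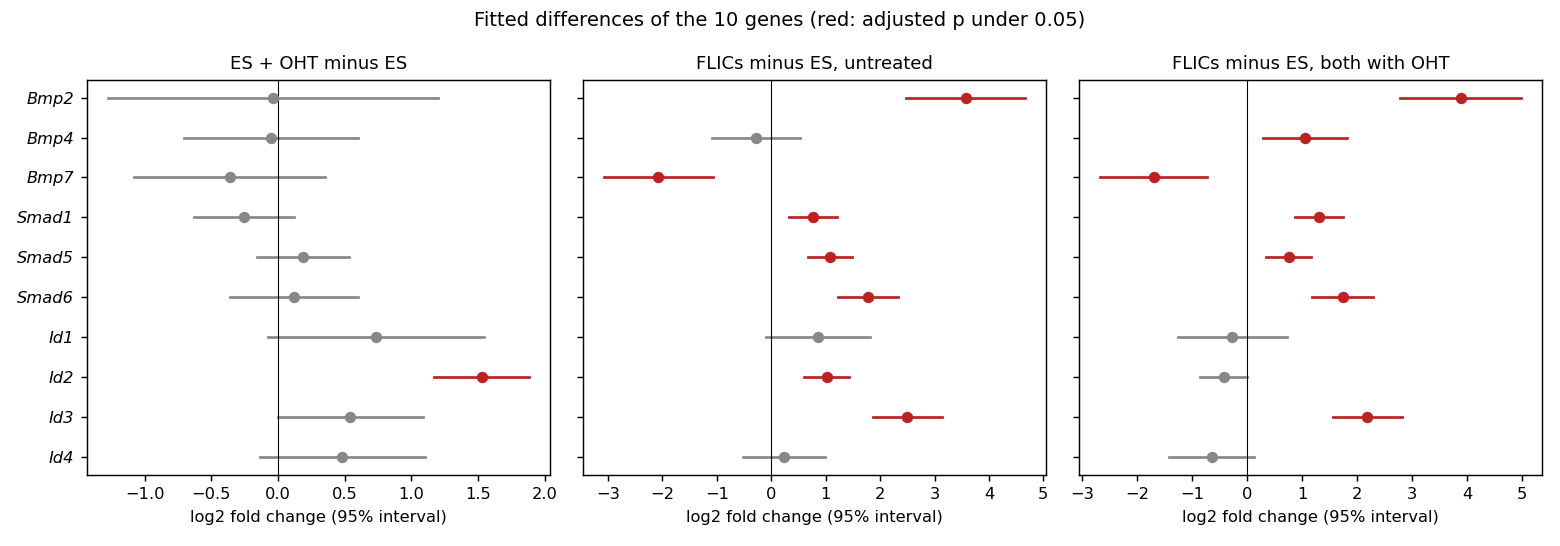
Points are fitted log2 fold changes and bars their 95% intervals, red where the edgeR adjusted p was under 0.05. With OHT in ES cells only Id2 is red, at 1.53, whereas 7 genes are red in each comparison of FLICs with ES cells.

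Untreated FLICs were set against untreated ES cells to ask how the pathway differs between the cell types. Of the members 7 of 10 were called, 6 higher and 1 lower in FLICs, against 54.9% of all genes, 26.2% higher and 28.7% lower. The members' median was 0.94 and that of all genes -0.11 on the log2 scale. FLICs had 1 library per condition, which the fit assumes to vary like the ES cell libraries, and these comparisons share libraries with the OHT comparison. The count filter could be passed through a FLICs library alone. Genes scarce in ES cells, such as Bmp2, Bmp5 and Runx2, thus entered the test through their FLICs counts. Their direction here is partly set by that filter.

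Among the ligands, Bmp2 was higher and Bmp7 lower in FLICs. Untreated ES cells had 0.199 and 0.160 CPM of Bmp2 and untreated FLICs 2.16 CPM, 11.9-fold more (3.58 on the log2 scale, SE 0.44, edgeR adjusted p = 0.00138). Bmp7 went the other way, with 4.90 and 5.24 CPM in ES cells and 1.204 CPM in FLICs (log2 fold change -2.07, SE 0.41, edgeR adjusted p = 0.00757). Bmp4 did not pass, with 17.1 CPM in FLICs just below both ES cell libraries (-0.28, 95% interval -1.08 to 0.53, edgeR adjusted p = 0.498). Per length, Bmp4 was the largest of the 3 ligands in each library, with 77.2% and 83.2% of their summed level in untreated ES cells and 83.5% in untreated FLICs. The second place went from Bmp7 in ES cells (16.1% and 22.1%) to Bmp2 in FLICs (10.9%).

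All 3 Smads were higher in FLICs. Smad1 stood at 44.6 CPM in FLICs (log2 fold change 0.77, SE 0.18, edgeR adjusted p = 0.0138), and Smad5 at 43.5 CPM (1.08, SE 0.16, edgeR adjusted p = 0.00302). The inhibitory Smad6 differed most, at 32.4 CPM against 8.37 and 10.5 CPM in ES cells (1.78, SE 0.22, 3.44-fold, edgeR adjusted p = 0.00149). Per length, Smad6 made up 12.03% and 16.0% of the summed level of the 3 Smads in untreated ES cells and 22.8% in untreated FLICs. Smad1 lost its call without untreated replicate 1 (0.88, edgeR adjusted p = 0.0780) or 2 (0.67, edgeR adjusted p = 0.164).

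Of the 4 Id genes, Id3 and Id2 were called higher in FLICs. Id3 stood at 150 CPM in untreated FLICs against 27.9 and 25.02 CPM in untreated ES cells (log2 fold change 2.50, SE 0.26, 5.66-fold, edgeR adjusted p = 0.000673). Id2 was higher too, at 32.04 CPM (1.02, SE 0.17, edgeR adjusted p = 0.00406), a call lost without untreated replicate 1 (0.96, edgeR adjusted p = 0.0598). Id1, at 103 CPM, did not pass (0.86, 95% interval -0.10 to 1.82, edgeR adjusted p = 0.108), nor did Id4, at 2.99 CPM (0.23, edgeR adjusted p = 0.536). Without either OHT-treated ES cell library, when the spread rests on the untreated pair, Id1 was called (0.86 and 0.88, edgeR adjusted p = 5.2e-13 and 1.6e-13).

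Per length the order of the Id genes differed between the cell types. In untreated ES cells Id1 came first (110 and 98.3 CPM per kb), then Id3 (78.1 and 70.1), Id2 (29.2 and 31.8) and Id4 (4.73 and 5.79), and no neighbours in that order overlapped. In untreated FLICs Id3 came first (419 CPM per kb), followed by Id1 (189), Id2 (61.7) and Id4 (6.20). With OHT in ES cells, Id1 (233 and 114 CPM per kb) and Id3 (130 and 86.0) overlapped, as did Id3 and Id2 (91.1 and 84.8). The summed Id level was 214 ± 11.5 CPM per kb in untreated ES cells (SD, n = 2), 377 ± 118 with OHT (SD, n = 2), and 676 and 703 CPM per kb in FLICs without and with OHT. Id3 was 34.0% and 35.1% of that sum in untreated ES cells and 62.0% in untreated FLICs. The Id2 share was 13.1% and 15.4% without OHT in ES cells and 19.8% and 29.0% after it. The deposited lengths of all 10 members, and 77.6% of the lengths of all genes, were multiples of 3, as coding lengths are. Untranslated regions may thus not be counted in them.

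**Figure D3:**
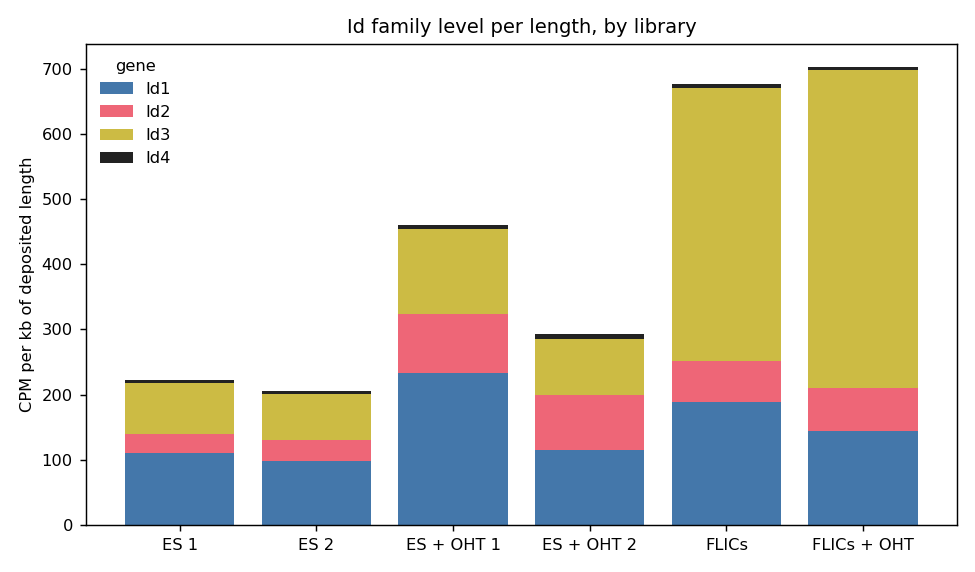
Stacked bars give the level of each Id gene per kb of deposited length in each library, from 0. Id3 fills 62.0% and 69.5% of the FLICs bars, Id1 is the largest share of each ES cell bar, and the OHT-treated ES cell bars reach 460 and 293 CPM per kb.

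With OHT in both cell types, FLICs against ES cells again gave 7 of 10 members called, 6 higher and 1 lower, against 57.7% of all genes, 28.4% higher and 29.3% lower. The calls were not the same genes. Bmp4 was called higher in FLICs here, at 41.6 CPM against 24.1 and 15.9 CPM in OHT-treated ES cells (log2 fold change 1.06, SE 0.31, edgeR adjusted p = 0.0300). Id2 was not called, and its sign was the opposite of the untreated comparison, at 34.0 CPM in FLICs against 47.3 and 44.0 CPM in ES cells (-0.42, 95% interval -0.85 to 0.0033, edgeR adjusted p = 0.0807). It was called at -0.38 without OHT replicate 1 (edgeR adjusted p = 0.0173), at -0.49 without OHT replicate 2 (edgeR adjusted p = 0.00145) and at -0.51 with a filter of 5 CPM (edgeR adjusted p = 0.0431). Bmp2 (3.88), Id3 (2.18), Smad6 (1.74), Smad1 (1.31) and Smad5 (0.76) were called higher and Bmp7 (-1.70) lower, with edgeR adjusted p from 0.000976 to 0.0133. Smad5 lost its call without either untreated ES cell library (edgeR adjusted p = 0.0644 and 0.0631). Id1 lay within the spread of the ES cell libraries, at 78.2 CPM against 126 and 62.1 CPM. It turned from -0.27 to 0.33 without OHT replicate 1, and was -0.71 without OHT replicate 2. Id4 was at -0.65 (edgeR adjusted p = 0.122), and -0.75 without OHT replicate 1.

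In the wider pathway, 36 of 60 genes were called between untreated cell types, 26 higher and 10 lower in FLICs (list median 0.51, all genes -0.11). Over all genes tested 54.9% were called, 26.2% higher and 28.7% lower, and these shares are the background for each count by role that follows. Of the genes listed as extracellular inhibitors, 11 of 13 tested were called higher and 1 lower, with a median of 3.30, against 26.2% and 28.7% of all genes. Sostdc1, Chrdl1, Bmper and Nbl1 passed the count filter through FLICs alone, and the fit of ES cells only kept 9 inhibitors. The count called higher and the median are thus partly set by the filter. Grem1 (gremlin), which binds and blocks BMP2 and BMP4, had 4 and 9 counts in the untreated ES cell libraries (0.132 and 0.240 CPM) against 163 CPM in FLICs (log2 fold change 9.71, SE 0.26, edgeR adjusted p = 3.9e-05). Sostdc1 was without a count in either untreated ES cell library and stood at 3.06 CPM in FLICs, or at least 69.0-fold higher when the ES cell group is set to 3 counts in all. Chrd (chordin) was the inhibitor called lower, at 0.216 CPM in FLICs against 1.66 and 1.17 CPM (-2.68, edgeR adjusted p = 0.0252). Bmp1, a protease that cleaves chordin and procollagens, stood at 286 CPM against 2.22 and 3.14 CPM (6.73, edgeR adjusted p = 0.000118).

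Of 7 receptors, 5 were called higher and 1 lower, against 26.2% and 28.7% of all genes. Acvr1, a type I receptor, stood at 49.1 CPM in FLICs against 8.77 and 8.33 CPM (2.52, SE 0.19, edgeR adjusted p = 0.000254), and Bmpr1b at 0.833 CPM against 0.0662 and 0.0532 CPM (3.74, edgeR adjusted p = 0.0133). The type II receptor Acvr2b was lower, at 2.25 CPM against 16.9 and 19.1 CPM (7.98-fold lower, edgeR adjusted p = 0.00155). Among co-receptors Rgmb was higher (1.40) and Eng lower (-4.36), and Hjv had no count in FLICs, at least 6.09-fold lower against 3 counts. Of 6 other ligands tested, Bmp5 was called higher, with 1 and 0 counts in untreated ES cells and 129 in FLICs, and 3 were called lower. Among those, Bmp8a stood at 0.123 CPM in FLICs against 2.95 and 3.03 CPM, and Bmp8b had no count there, at least 13.4-fold lower against 3 counts. Smad7, the other inhibitory Smad, was lower in FLICs (-0.93, edgeR adjusted p = 0.00647), opposite to Smad6.

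Of the 12 other BMP targets tested, 5 were called higher and 1 lower, a share near the 54.9% called among all genes. Runx2, the bone transcription factor, stood at 53.3 CPM in FLICs against 0.0662 and 0.0532 CPM (9.73, SE 0.31, edgeR adjusted p = 3.9e-05). Atoh8 stood at 24.3 CPM, from 5 and 2 counts in untreated ES cells (7.82, edgeR adjusted p = 0.000105). Dusp9, a MAP kinase phosphatase known as a BMP4 target in ES cells, was the gene called lower, at 12.3 CPM in FLICs against 82.8 and 83.3 CPM (-2.76, SE 0.22, edgeR adjusted p = 0.000294). Of the E proteins, which Id proteins bind, Tcf12 was higher (1.67, edgeR adjusted p = 0.00186) and the other 2 were not called. The intracellular modulators were mostly not called (8 of 10), with Fkbp1a higher (0.60) and Bambi lower (-1.27).

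**Figure D4:**
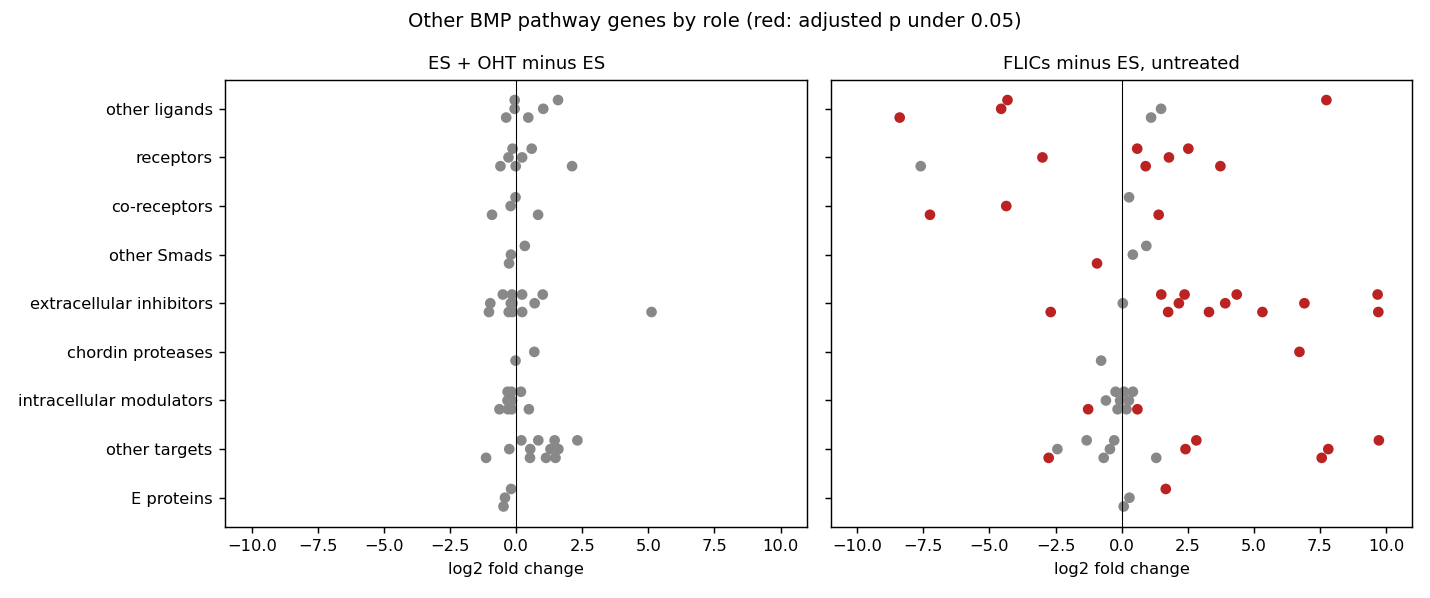
Each point is 1 of 60 further BMP pathway genes, placed by its fitted log2 fold change and role, red where the edgeR adjusted p was under 0.05, and vertical offsets within a row carry no value. No point is red for OHT in ES cells, and 11 of 13 extracellular inhibitors are red on the higher side in FLICs. Genes scarce in ES cells could pass the count filter through FLICs alone. Fitted values of the 4 genes without a count in 1 of the groups (Bmp8b, Acvrl1, Hjv and Sostdc1) depend on the model's prior count.

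For OHT in FLICs there was 1 library on each side, with no replicate check and no test. The size rule asked for a mean of 1 CPM or more and a change of 1 or more in log2(CPM + 1), which is 2-fold on that scale. Bmp4 was the 1 member of 10 that met it, against 0.526% of 11789 genes, 0.424% higher and 0.102% lower. Its level was 17.1 CPM in untreated and 41.6 CPM in OHT-treated FLICs (554 and 1818 counts), a difference of 1.23 on that scale. Among ligands Bmp2 stood at 2.16 and 2.61 CPM and Bmp7 at 1.204 and 1.212 CPM. With this difference Bmp4 made up 91.5% of the ligands' summed level per length in OHT-treated FLICs.

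None of the Id genes met the size rule. Id3 stood at 150 and 174 CPM, Id2 at 32.04 and 34.0, Id1 at 103 and 78.2 and Id4 at 2.99 and 2.26 CPM without and with OHT. Id1 and Id4 were thus lower with OHT, and Id2 and Id3 higher. Smad1 stood at 44.6 and 54.4 CPM, Smad5 at 43.5 and 39.7 CPM and Smad6 at 32.4 and 34.3 CPM. The median difference of the 10 members was 0.08, against 0.03 over all genes averaging 1 CPM or more. Of 48 further pathway genes at that level, only Sostdc1 met the rule, at 3.06 without and 0.801 CPM with OHT. Beside the Bmp4 value, the fibroblast and mesenchyme markers summed to 11840 without and 16587 CPM with OHT, and their part in it was not tested.

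The difference of the OHT response between FLICs and ES cells was tested in the same fit. By edgeR it was called for 0 of the 10 members and for 0 of 15535 genes (0%). At an unadjusted p under 0.05 it was found for 2 members and for 6.8% of all genes, and DESeq2 called 21 genes. Id2 had the smallest p of the members: the log2 response was lower in FLICs by 1.44 (-1.44, SE 0.24, unadjusted p = 0.00119, edgeR adjusted p = 0.638, DESeq2 adjusted p = 0.0328). The Bmp4 response was higher in FLICs by 1.33 (SE 0.46, unadjusted p = 0.0280, edgeR adjusted p = 0.672). Without OHT-treated ES cell replicate 1 or 2, when the spread rests on the untreated pair alone, 4 members were called in each case, Bmp4, Id1 and Id2 in both, with Smad1 (0.60) in the former and Id3 (-0.62) in the latter. All 4 Id genes had a negative value, with a median of -1.01 against 0.07 over all genes. That sign held for Id1, Id2 and Id4 in each alternative run, and Id3 was at 0.002 without OHT replicate 1.

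The genes whose profile over the 6 libraries was closest to that of Id1, by the root mean square difference of centred log2(CPM + 1) among 10119 named genes averaging 5 CPM or more, were Myrf (0.15), Ifrd1 (0.20) and Baz1a (0.21). Closest to Bmp4 were Crebrf (0.24), Fhl1 (0.26) and Vat1 (0.26). The libraries share 2 cell types and a treatment, so such likeness is a description only.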

How the data were processed

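Whole-number read counts per gene, not normalized, were deposited by the authors for 6 RNA-seq libraries, with a length per gene. Libraries came from a TruSeq Stranded Total RNA kit, per the labels' protocols. Salmon, DESeq2 and GRCm38 are named in the submitters' processing notes, and versions, roles, annotation and strand settings were not given in the sources used. Symbols matched 22509 of 22600 identifiers (91 unmatched), Hjv through its RefSeq synonym. Gene positions are from GENCODE M21 on GRCm38.

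Genes were filtered with filterByExpr by group, scaled by TMM, which also scales the CPM, and fitted with edgeR 4.0.16 (R 4.3.3), 1 mean per group over all 6 libraries. Quasi-likelihood p-values were Benjamini-Hochberg adjusted over 15535 genes and called at 0.05. The SE is the absolute log2 fold change over the root of F. The 2 residual degrees of freedom come from the ES cell pairs. Within each pair, counts differed beyond sampling noise (13.2 untreated and 66.3 with OHT, as chi-square over its degrees of freedom). Exact permutation of 2 against 2 cannot go below p = 0.333 and was not used. Alternatives were DESeq2 1.42.0, relative log expression (RLE) scaling, no filter, 5 CPM in 2 libraries, ES cells alone, a replicate term, each ES cell library left out and, for OHT in FLICs, RLE scaling, a pseudocount of 0.5 and other minimum means.

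Members and gene lists were chosen with earlier results of these data known. All members are named. For each pathway role, the 2 genes with the smallest p with OHT in ES cells are named, and up to 2 of the largest called changes per direction between untreated cell types.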

Additional observations from a re-analysis of the deposited data

How the results depend on the processing

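The number of members called with OHT in ES cells was 1 in the fit as reported and under each alternative that kept all libraries of ES cells (relative log expression scaling, DESeq2, both count filters, ES cells only). It ran from 0 to 4 when 1 library was left out: 0 without either untreated library, 2 without OHT replicate 1 and 4 without OHT replicate 2. The count for the difference of the OHT response was 0 as reported, 1 with DESeq2 and 0 to 4 with a library left out. Counts between cell types stayed within 1.5 times of 7, at 5 to 8 untreated and 6 to 10 with OHT. A fit with 1 OHT-treated ES cell library left takes its spread from the untreated pair alone. In FLICs, Bmp4 was the member counted under each of 4 alternatives.

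The samples share only a replicate number. Replicate 1 of both ES cell groups deviated from its group mean alike over 15535 genes (Pearson r = 0.345), but 2 pairs do not establish a pairing. With the replicate block, on 1 residual degree of freedom, 1 member was called with OHT in ES cells, 7 in each comparison of cell types and 0 for the difference of responses. FLICs carry no number. Over all genes the block gave 1206 calls with OHT in ES cells.

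Over all genes, OHT in ES cells gave 83 calls as reported, 392 with DESeq2, 262 without a filter, 46 with the filter of 5 CPM, 148 with ES cells only and 18 to 6165 with a library left out. The further pathway genes called there were 0 as reported, 2 with DESeq2, 5 with the block and 0 to 24 with a library left out. The difference of responses gave 0 as reported, 21 with DESeq2, 17 with the block and 0 to 2804 with a library left out, and untreated cell types gave 8532 as reported and 5375 to 12025. In FLICs 62 genes were counted, 112 with a pseudocount of 0.5 and 37 with a minimum mean of 5 CPM. DESeq2 moved the median of all genes between cell types from -0.11 to -0.01 untreated and from -0.07 to -0.19 with OHT.

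Signs turned for values near 0 with OHT in ES cells: Bmp2 from -0.04 to 0.0101 with relative log expression scaling and -0.19 to 0.12 with a library left out, Bmp4 from -0.05 to 0.0223 with the 5 CPM filter and -0.38 to 0.26, and Smad6 from 0.12 to between -0.0287 and 0.29. Id1 with OHT between cell types ran from -0.71 to 0.33, and the response differences ran from -0.21 to 0.11 for Smad6 and from -0.62 to 0.00237 for Id3. The cause was not tested. Of the values of single members under alternatives, 322 kept direction and call, 7 lost a call, 20 gained one and 12 changed sign.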
